A study of Rattus norvegicus with 12 samples.

Results

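The cytosolic ribosomal proteins were followed through RNA-seq libraries of rat HPCs, hepatic progenitor cells, which in the developing liver give rise to hepatocytes and to bile duct epithelium. Members were taken by name: every line whose symbol is Rpl or Rps with a number, with or without a short suffix, or is Rplp0, Rplp1, Rplp2 or Rpsa. The S6 kinases and pseudogene names were left out. This gave 102 of the 22384 lines with a symbol, 64 of the large subunit and 38 of the small subunit, for 90 distinct symbols. Of the 102 lines, 94 reached the mean of 1 FPKM required for testing (fragments per kilobase, scaled to library size). The other 8 stayed at or below 0.583 on the log2(FPKM + 1) scale in every library: Rpl10l, Rpl3l, Rpl31l3, Rps19l1, Rps4y2, both lines of Rpl30l1 and a second line of Rps2. Levels below are log2(FPKM + 1), and differences are on that scale.

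The 12 libraries form 6 groups of 2, all of HPCs from day 13.5 of gestation. The groups are Tnfrsf1α-/- with tumour necrosis factor alpha (TNFα) for 1 hour, Tnfrsf1α-/- untreated, Tnfrsf1β-/- with TNFα for 1 hour, Tnfrsf1β-/- untreated, wild type with TNFα for 1 hour, and wild type untreated. The labels do not say how either knockout was made, in which cells it acts or whether a line is 1 clone. Nothing in them says that paired libraries came from separate cultures or animals. Every p-value here rests on how far libraries of the same group lay apart, pooled over all 6 groups and drawn towards that of lines of similar level. That spread may be technical. The depth of the libraries is unknown, because the table holds no counts.

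Ribosomes consist of a large and a small subunit, each built from ribosomal RNA and a set of proteins that are needed in near-equal numbers. Their genes are among the most strongly expressed in dividing cells, and most of their mRNAs begin with a C followed by a run of pyrimidines, the 5′ TOP motif through which mTOR signalling controls their translation. A few members have paralogues, such as Rpl22l1 for Rpl22, Rpl39l for Rpl39 and Rps27l for Rps27, whose proteins can take the place of the parent protein or act outside the ribosome.

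The sequences below are shown because they set TOP starts beside starts without the motif, for 4 of the members that strayed far from the group in these libraries (Rpl22l1, Rps6, Rpl4 and Rpl39), for the parents and paralogues Rpl22, Rps27 and Rps27l, and for the stalk protein Rplp1. Each runs from 15 bases before to 15 bases from the RefSeq start on the gene's strand (build GRCr8), and the capitals mark the first 5 bases from that start. The windows are chr8:71290858-71290887 (minus strand) for Rplp1, chr2:177964592-177964621 (minus) for Rps27, chr5:168117946-168117975 (plus) for Rpl22, chr2:113683181-113683210 (plus) for Rpl22l1, chr8:76443643-76443672 (plus) for Rps27l, chrX:121195882-121195911 (minus) for Rpl39, chr5:106420526-106420555 (minus) for Rps6 and chr8:73566462-73566491 (plus) for Rpl4.
Rplp1: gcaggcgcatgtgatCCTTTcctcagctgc
Rps27: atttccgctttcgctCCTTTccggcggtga
Rpl22: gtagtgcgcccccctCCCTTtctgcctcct
Rpl39: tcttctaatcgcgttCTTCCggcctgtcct
Rpl22l1: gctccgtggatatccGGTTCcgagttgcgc
Rps27l: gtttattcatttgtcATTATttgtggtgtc
Rps6: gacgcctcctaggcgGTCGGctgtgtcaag
Rpl4: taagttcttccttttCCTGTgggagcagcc

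Rplp1, Rps27, Rpl22 and Rpl39 begin with C and 4 further pyrimidines at the annotated base. Rpl22l1, Rps27l, Rps6 and Rpl4 do not, although Rpl4 has a pyrimidine run just before its start and Rps6 has one some bases before its start. The motif, a C and then 4 bases that are each C or T, was searched on the gene's strand only. Of the 90 member symbols 68 matched the promoter table, with 69 promoters. The motif lay exactly at the start in 23 of these 69 (33.3%), against 881 of all 33469 promoters (2.63%). Within 10 bases of the start it lay in 48 of the 69 (69.6%), against 27.8% of all promoters, so an annotated start a few bases off decides many matches. Rpl39l and Rpl30 had no entry.

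The libraries differed in their sums, with a total FPKM of 447554 to 472935 under both knockout labels without TNFα and of 1071530 to 2085916 elsewhere, so levels depend on how libraries are scaled. Tnfrsf1a, which encodes TNFR1, was at 5.65 to 6.13 in the 4 libraries labelled Tnfrsf1α-/- and at 5.15 to 5.65 in wild type, so its level does not bear out that label. Tnfrsf1b, which encodes TNFR2, had a listed value of 0 in every library with the label Tnfrsf1β-/- but also in untreated wild type. Every direction for the knockouts therefore rests on the labels. The libraries of TNFα-treated wild type stood apart in cell type markers. The summed FPKM of 10 hepatocyte marker lines was 4799 to 4969 there and at most 26.6 in the other 10 libraries. The summed FPKM of 9 mesenchymal and stellate lines was 440 to 540 there and 2184 to 6485 elsewhere. These lines did not all go the same way. Dcn was at 8.16 and 7.72 there, above its 1.85 to 7.56 elsewhere. Col1a1 was at 7.98 and 7.82 there, within its 6.14 to 10.62 elsewhere. The other lines of that list, such as Vim, Sparc, Des and Acta2, were at most 1.34 there. The summed FPKM of 10 progenitor and cholangiocyte markers was 2519 to 2695 there and 172 to 890 elsewhere. Of these markers Afp and Epcam were listed at 0 in the other 10 libraries, and Krt18, Krt19 and Cd24 were at most 0.46 in them. Krt8 was at 9.96 and 10.05 in TNFα-treated wild type, at 6.26 to 8.62 in 9 of the other libraries and at 0.62 in the remaining one. Sox9 was at 9.39 and 9.67 under the label Tnfrsf1α-/- with TNFα, at 9.15 and 9.19 in TNFα-treated wild type, at 5.21 to 6.30 in untreated wild type and TNFα-treated Tnfrsf1β-/-, and at most 0.31 in the untreated knockout-labelled libraries. Dlk1 and Prom1 were at most 0.19 anywhere. Replicate 2 under the label Tnfrsf1α-/- with TNFα also stood apart from replicate 1. It had Acta2 at 0.26 against 8.55 in replicate 1, Krt8 at 0.62 against 6.26, Spp1 at 6.12 against 0, Cd68 at 4.09 against 0.66, Pdgfrb at 2.94 against 0.90 and Tnfrsf1b at 4.09 against 0. In bulk libraries fewer cells of a type and less RNA per cell cannot be told apart. The part of these differences in the results below was not tested.

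The ribosomal proteins held between 6.99% and 23.7% of total FPKM. Under the label Tnfrsf1α-/- they held 6.99% and 10.7% with TNFα (8.84% ± 2.62, SD, n = 2), against 10.1% and 10.6% untreated (10.4% ± 0.347). Under the label Tnfrsf1β-/- they held 21.1% and 23.7% with TNFα (22.4% ± 1.88), against 9.55% and 9.23% untreated (9.39% ± 0.230). In wild type they held 7.95% and 8.33% with TNFα (8.14% ± 0.274), against 16.1% and 22.6% untreated (19.4% ± 4.61). TNFα-treated Tnfrsf1β-/- and untreated wild type thus had the high shares, and their ranges overlapped. The other 4 groups lay at or below 10.7% in every library.

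The median level of the 94 tested lines gave another order of the groups. It was 9.14 and 9.93 under the label Tnfrsf1α-/- with TNFα, against 8.75 and 8.81 untreated. Under the label Tnfrsf1β-/- it was 10.74 and 10.78 with TNFα, against 8.57 and 8.56 untreated. In wild type it was 10.25 and 10.32 with TNFα, against 10.35 and 11.10 untreated. The 4 untreated knockout-labelled libraries were lowest in level, while the lowest shares were found with TNFα in wild type and in 1 library labelled Tnfrsf1α-/-. The median of all 11860 tested lines moved little beside this, between 2.69 and 3.71. Untreated knockout-labelled libraries had low totals, so a low level was still a share of 9.23% to 10.6% there. After every library was scaled to the same total FPKM, the median of the 94 tested lines was 9.86 in untreated Tnfrsf1α-/- and 9.71 in untreated Tnfrsf1β-/-. It was 9.27 in TNFα-treated wild type, so that the order of these groups turned round.

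**Figure D1:**
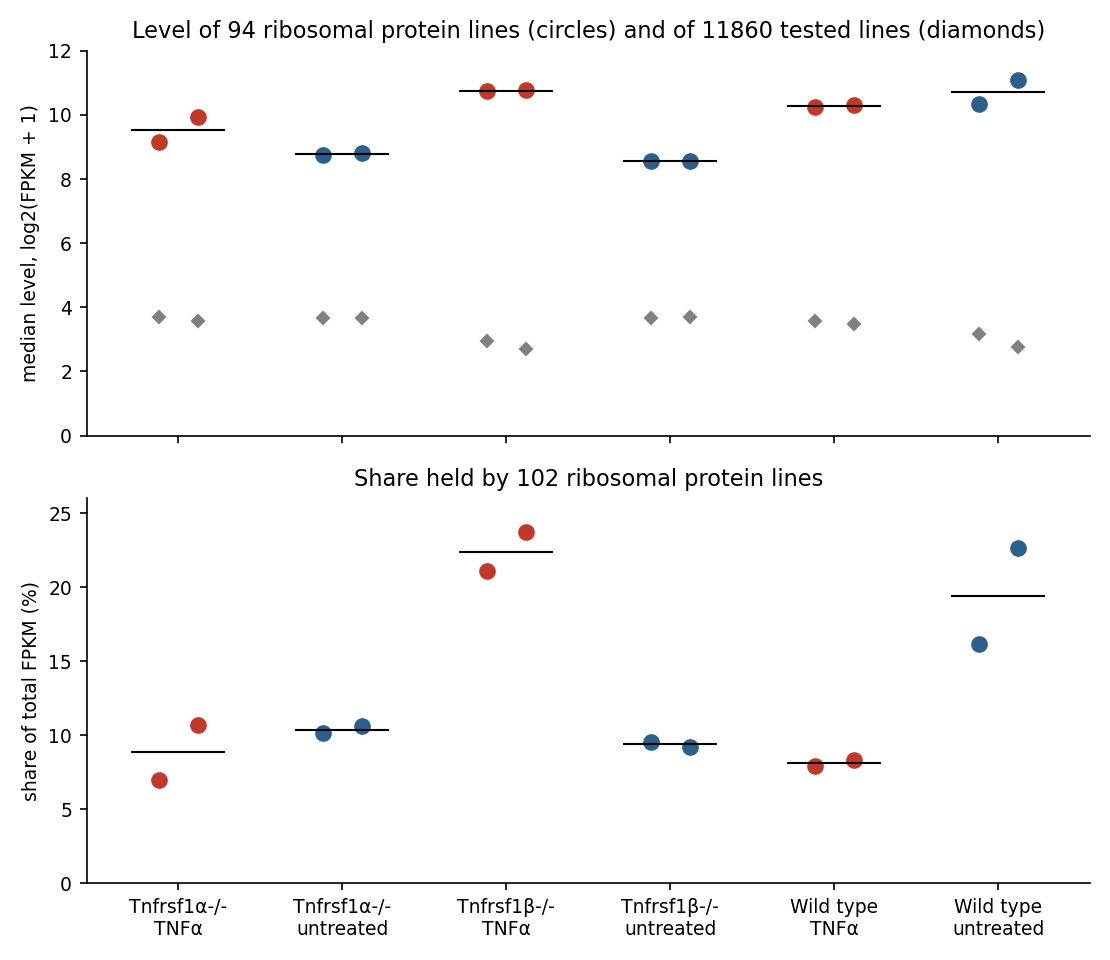
Median level in log2(FPKM + 1) of the 94 tested ribosomal protein lines (circles, upper panel) with the median of all 11860 tested lines (diamonds), and share of total FPKM in percent held by all 102 lines (lower panel). Each point is 1 library, red with TNFα and blue untreated, and the bar is the mean of a group's 2 libraries; the share was 21.1% and 23.7% in TNFα-treated Tnfrsf1β-/- and at most 10.7% in 4 of the 6 groups.

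Counted by rank, 38 members were among the 100 highest lines in each TNFα-treated Tnfrsf1β-/- library, and 33 and 41 in untreated wild type. In TNFα-treated wild type the counts were 13 and 14, and under the label Tnfrsf1α-/- with TNFα they were 3 and 15. The untreated knockout-labelled libraries had 30 to 34, although their levels were lowest. Across the 94 tested lines the highest group mean was in TNFα-treated Tnfrsf1β-/- for 52, in untreated wild type for 28, in TNFα-treated wild type for 12 and under the label Tnfrsf1α-/- with TNFα for 2. The lowest group mean was in untreated Tnfrsf1β-/- for 69 lines and in untreated Tnfrsf1α-/- for 18.

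Replicates differed along the whole group in some pairs. Under the label Tnfrsf1α-/- with TNFα, replicate 2 was above replicate 1 in 90 of 94 lines, by a median of 0.90, while the median of all tested lines was lower by 0.09. This is the pair whose cell type markers differed. In untreated wild type replicate 2 was above replicate 1 in 88 of 94 lines, by a median of 0.69. In untreated Tnfrsf1α-/- and Tnfrsf1β-/- the medians were 0.03 and -0.05.

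The members with the highest mean level were Rpl41, which encodes one of the smallest proteins of the large subunit, followed by Rps2, the stalk proteins Rplp0 and Rplp1, and Rpsa, a small-subunit protein also known as a laminin receptor. Rpl41 was at 11.43 and 12.72 under the label Tnfrsf1α-/- with TNFα, against 10.54 and 10.91 untreated. It was at 13.99 and 14.43 in TNFα-treated Tnfrsf1β-/-, against 10.64 and 10.40 untreated. The wild-type levels were 13.45 and 13.63 with TNFα, against 13.56 and 14.40 untreated. Rpl41 was the highest member in 6 libraries, those of wild type and of TNFα-treated Tnfrsf1β-/-, with 6.97% to 7.90% of the members' FPKM. Rps2 led in the 4 untreated knockout-labelled libraries, with 3.79% to 4.87%. The tested lines with the lowest mean were Rpl22l2, the first line of Rpl13a, Rpl39l, the first line of Rpl39 and Rpl35a. The 10 symbols with more than 1 line make up 22 of the 102 lines, and how reads were divided among such lines or among pseudogenes is not given in the sources used here, so single lines of them are uncertain.

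The pool was most uneven under the label Tnfrsf1α-/- with TNFα. There 9 and 13 lines held 50% of the members' FPKM, against 22 in both untreated libraries of that label. In TNFα-treated Tnfrsf1β-/- 18 and 15 lines held that share, against 22 in each untreated library. Wild type needed 17 and 16 lines with TNFα, against 19 and 18 untreated. The summed FPKM of large-subunit lines was 2.49 and 1.92 times that of small-subunit lines under the label Tnfrsf1α-/- with TNFα, against 1.40 and 1.36 untreated. The same ratio was 1.19 and 1.06 in TNFα-treated Tnfrsf1β-/-, against 1.33 and 1.35 untreated. In wild type it was 1.53 and 1.52 with TNFα, against 1.23 and 1.22 untreated. Without Rpl22l1 the ratio under the label Tnfrsf1α-/- with TNFα was 1.31 and 1.27, within the range of the other groups.

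**Figure D2:**
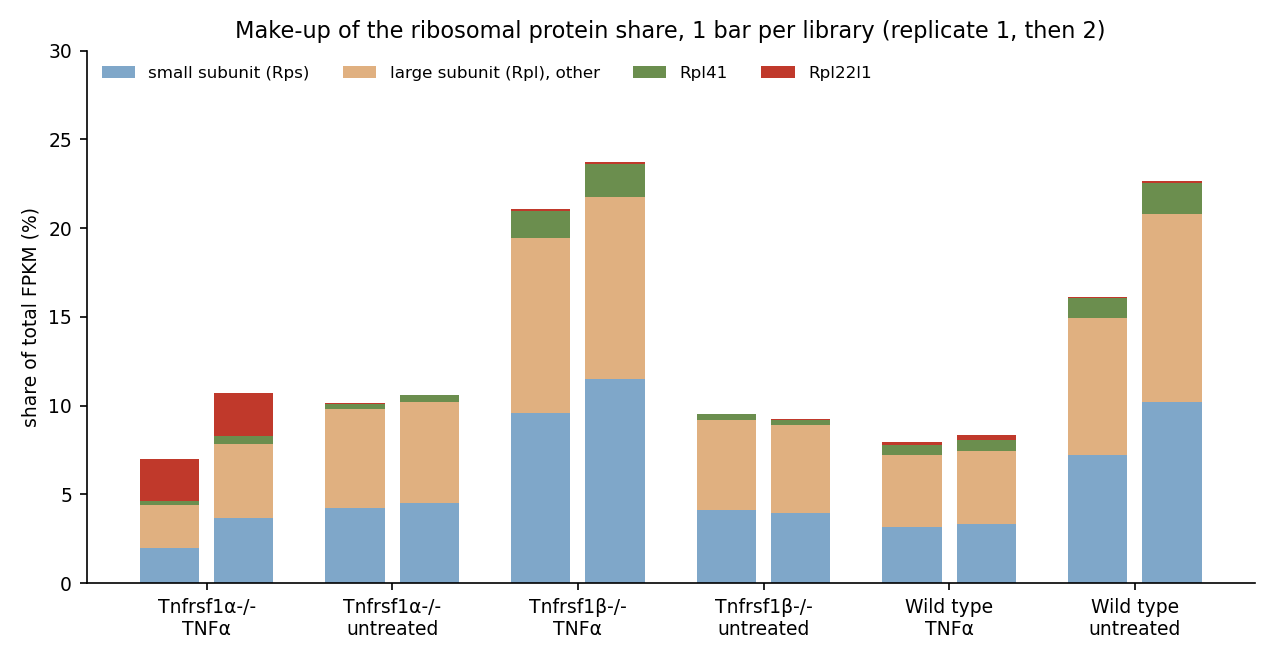
Share of total FPKM in percent held by small-subunit lines, Rpl41, Rpl22l1 and all other large-subunit lines, with 1 stacked bar for each of the 12 libraries and replicate 1 left of replicate 2. Rpl22l1 held 33.8% and 22.4% of the members' FPKM in the TNFα-treated libraries labelled Tnfrsf1α-/- and at most 3.38% in any other library.

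Members that break from the group were ranked by how far each line strayed from the member median of its library. The SD of this deviation over the 12 libraries had a median of 0.424 and was under 0.5 for 56 of the 94 lines, among them Rps7 (0.140) and the first line of Rpl21 (0.142), which lay 1.42 to 1.87 above the member median in every library. It was over 1 for 9 of the 94 lines: Rpl39l (3.36), Rpl22l1 (2.94), Rpl30 (1.31), the first line of Rpl13a (1.30), the second and first lines of Rps6 (1.20 and 1.16), Rpl7l1 (1.15), Rpl4 (1.06) and the first line of Rpl39 (1.02). Rpl35a (0.79) and Rpl3 (0.76) lay just below. With deviations taken from the mean instead of the median 8 lines passed, and with a pseudocount of 0.1 there were 10. Lines with the TOP motif at the start had a median SD of 0.449 and 1 of 24 over 1. Lines with a promoter but no motif there had a median of 0.402 and 6 of 50 over 1. The split by a motif within 10 bases of the start went the other way. With it the median was 0.408 and 6 of 55 were over 1, and without it 0.425 and 1 of 19.

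Rpl22l1, the paralogue of the large-subunit protein Rpl22, reached 14.92 and 15.09 under the label Tnfrsf1α-/- with TNFα, against 6.66 and 5.99 untreated. It was at 9.85 and 10.14 in TNFα-treated Tnfrsf1β-/-, against 5.92 and 6.06 untreated. Wild-type libraries had 11.50 and 12.52 with TNFα, against 9.71 and 9.93 untreated. The groups with and without TNFα did not overlap in any of the 3 genotypes, and the level under the label Tnfrsf1α-/- with TNFα was above every other library. At 30993 and 34995 FPKM it ranked 2 and 3 there among all lines of the library. TNFα minus untreated was 8.68 under the label Tnfrsf1α-/- (SE 0.34, limma adjusted p = 1.9e-07), 4.01 under Tnfrsf1β-/- (SE 0.34, limma adjusted p = 7.97e-05) and 2.19 in wild type (SE 0.34, limma adjusted p = 0.00103). Its parent Rpl22 was at 8.70 and 10.01 under the label Tnfrsf1α-/- with TNFα, against 8.16 and 8.10 untreated, a difference of 1.22 that did not pass (limma adjusted p = 0.0756). The FPKM ratio of Rpl22l1 to Rpl22 was 74.6 and 34.0 under the label Tnfrsf1α-/- with TNFα and 3.22 and 5.84 in TNFα-treated wild type. In the other 8 libraries it was between 0.229 and 0.668, so Rpl22 was the higher of the pair in these. Whether reads of the pair were shared between them is not given.

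Rpl39l, a paralogue of Rpl39 known in mouse mainly from the testis, was seen almost entirely in 1 group. It was at 8.85 and 9.0 in TNFα-treated wild type and listed at 0 in both untreated wild-type libraries. Under the label Tnfrsf1α-/- it was at 0.45 and 0 with TNFα, against 0 and 0 untreated, and every library labelled Tnfrsf1β-/- had it at 0. Because other groups are listed at 0 no fold is given; the line passed in wild type with TNFα against untreated (limma adjusted p = 2.16e-09). The FPKM ratio of Rpl39l to the higher line of Rpl39 was 2.23 and 1.64 in TNFα-treated wild type. The hepatocyte marker lines were high in the same 2 libraries.

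Rpl30, a protein of the large subunit, was at 10.24 and 10.23 in TNFα-treated wild type, against 7.48 and 8.0 untreated. It was at 5.93 and 8.40 under the label Tnfrsf1α-/- with TNFα, against 5.08 and 5.06 untreated, and at 7.89 and 8.30 in TNFα-treated Tnfrsf1β-/-, against 5.06 and 5.07 untreated. It stayed 1.53 to 3.75 below the member median outside TNFα-treated wild type, where it lay within 0.09 of it. In wild type TNFα minus untreated was 2.49 (SE 0.63, limma adjusted p = 0.0122), a call that was lost without replicate 1 of untreated wild type (adjusted p = 0.0615) or either TNFα-treated wild-type library (adjusted p = 0.0713 and 0.0689).

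Rps6, the small-subunit protein phosphorylated by the S6 kinases, moved the other way. Its first line was at 7.57 and 7.22 in TNFα-treated wild type, against 9.42 and 10.55 untreated, and its second line lay close to it in every library. Under the label Tnfrsf1α-/- the first line was at 9.13 and 9.59 with TNFα, against 9.09 and 8.84 untreated. Under Tnfrsf1β-/- it was at 9.85 and 8.63 with TNFα, against 8.58 and 8.58 untreated. In wild type it fell by 2.59 with TNFα (SE 0.45, limma adjusted p = 0.00186). Under the labels Tnfrsf1β-/- and Tnfrsf1α-/- neither line passed.

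Rpl4, a core protein of the large subunit, ran from 8.37 to 10.34 over the 12 libraries and did not rise with the group in TNFα-treated Tnfrsf1β-/-. It was at 9.47 and 9.81 under the label Tnfrsf1α-/- with TNFα, against 9.58 and 9.48 untreated, and at 9.47 and 8.37 in TNFα-treated Tnfrsf1β-/-, against 9.56 and 9.54 untreated. In the wild-type pairs the values were 9.46 and 9.39 with TNFα, against 9.63 and 10.34 untreated. It therefore lay 0.67 to 0.99 above the member median in the 4 untreated knockout-labelled libraries, where the group was low, and 1.27 and 2.40 below it in TNFα-treated Tnfrsf1β-/-. Rpl7l1, a paralogue of Rpl7, was between 5.35 and 7.04 in all 12 libraries, and its FPKM ratio to Rpl7 ran from 0.0741 to 0.639. The FPKM ratio of Rps27l, known in human cells as a p53 target, to Rps27 stayed between 0.0369 and 0.133. The first line of Rpl13a was at most 3.65 anywhere, while the second, at 7.51 to 10.51, followed the group.

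**Figure D3:**
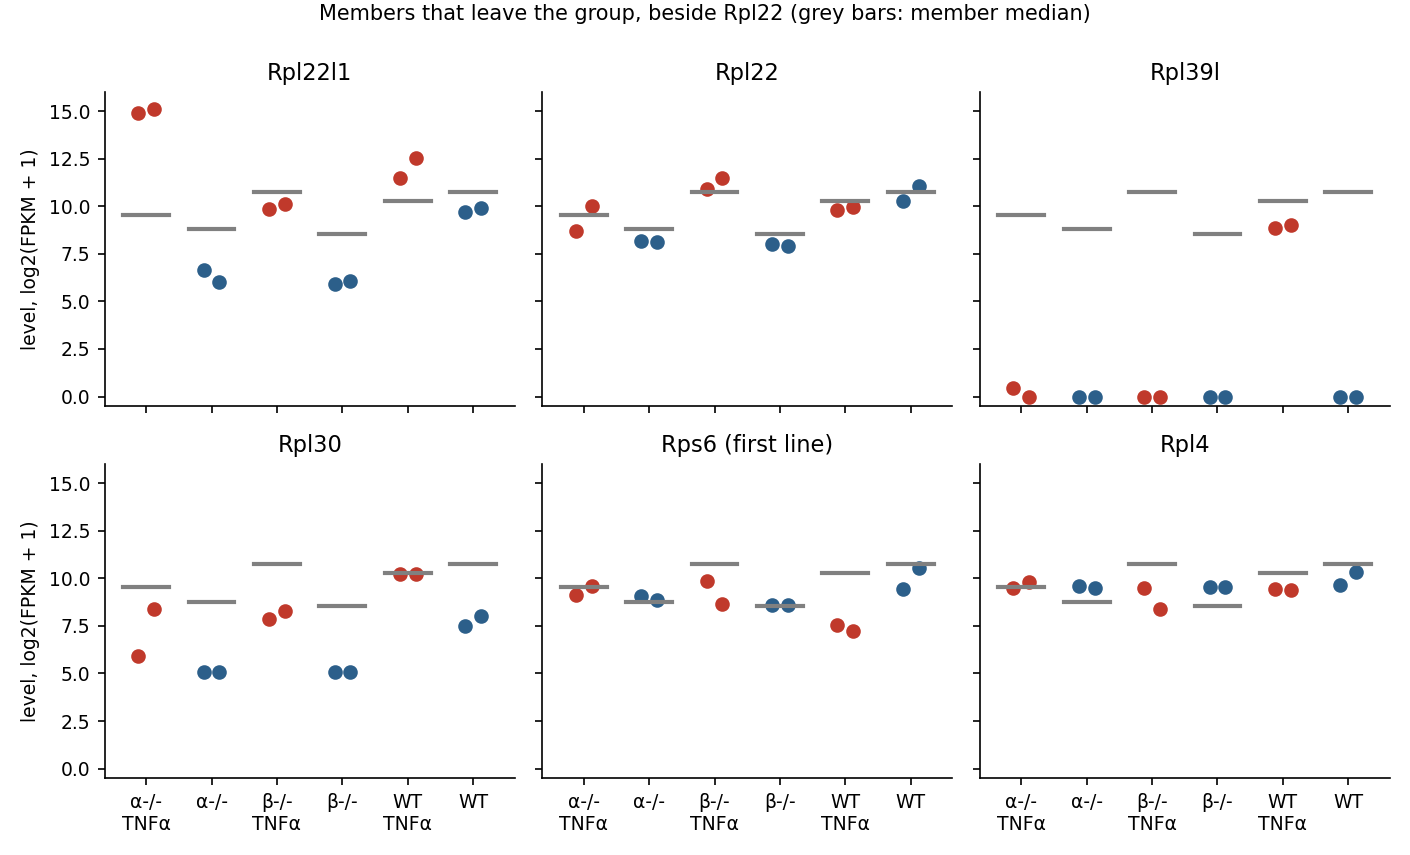
Levels in log2(FPKM + 1) of Rpl22l1, its parent Rpl22, Rpl39l, Rpl30, the first line of Rps6 and Rpl4, with 1 point per library, red with TNFα and blue untreated; grey bars are the group mean of the per-library median of the 94 tested ribosomal protein lines. Rpl22l1 was at 14.92 and 15.09 under the label Tnfrsf1α-/- with TNFα, and Rpl39l was at 8.85 and 9.0 in TNFα-treated wild type and at most 0.45 elsewhere.

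The next comparisons asked how the members differed between groups. Counts are of the 94 tested lines past an adjusted p of 0.05 in limma, fitted on all 11860 tested lines. The share of all tested lines called is given beside each, except where a library was left out. Most counts with a library left out pool higher and lower calls, and calls among all lines may have moved as well. Alternative scalings are median-ratio scaling, quantile normalization and an equal total FPKM in every library, and beside their counts stands the share of all lines called in the direction of most called members. In most comparisons the equal total moved the median difference of all tested lines furthest. It moved to -1.40 from -0.02 for TNFα under the label Tnfrsf1α-/- and to 1.61 from 0.48 for untreated Tnfrsf1α-/- against wild type. The TNFα response of Tnfrsf1β-/- against wild type was an exception. Its median of -1.11 became -1.69 with an equal total but -0.10 with median-ratio scaling.

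Under the label Tnfrsf1α-/- TNFα was followed by few calls, and their direction depended on the scaling. With TNFα 14 members were higher and 0 lower, against 9.81% of all tested lines higher and 7.50% lower, and the median difference was 0.73 for members and -0.02 for all lines. With median-ratio scaling 4 were higher and 0 lower (7.73% of all lines higher), but with quantile normalization 3 were higher and 58 lower (20.8% of all lines lower). With an equal total 2 were higher and 53 lower, which is 56.4% of members against 74.7% of all lines lower, so the members were called lower less often than all lines there. Without replicate 1 of the treated pair 68 were called, and without replicate 2 there were 4. Without replicate 1 or 2 of the untreated pair 2 and 4 were called, without either untreated Tnfrsf1β-/- library 6, without either TNFα-treated Tnfrsf1β-/- library 9 and without either TNFα-treated wild-type library 5. After Rpl22l1 the largest rises among called lines were in the first line of Rpl39 (2.40, SE 0.37, limma adjusted p = 0.00249), at 3.70 and 4.83 with TNFα and at 1.97 and 1.76 untreated, in Rps20 (1.97) and in Rps28 (1.82). Rpl30 differed by 2.09 and did not pass (limma adjusted p = 0.0543). The calls of Rps20 and Rps28 were lost with quantile normalization, with an equal total and with only the groups compared in the fit, where the first line of Rpl39 did not pass either (adjusted p = 0.172). Rps20 also missed the threshold with median-ratio scaling (adjusted p = 0.0559) and without each of 7 single libraries, and its difference was 1.16 without replicate 2 of the treated pair. Rps28 was lost without replicate 1 of the untreated pair (adjusted p = 0.133). Rplp0 was higher by 1.04 (limma adjusted p = 0.0445), a call lost in most alternatives, with 0.56 without replicate 2 of the treated pair, -0.51 with an equal total and a call in the other direction with quantile normalization (-1.11). Rplp1, Rplp2 and Rpsa did not pass.

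Under the label Tnfrsf1β-/- nearly all members were higher with TNFα. Of the 94 lines 88 were higher and 0 lower, against 17.6% of all lines higher and 42.9% lower, with a median difference of 2.52 for members and -0.66 for all lines. The split was 90 and 0 with median-ratio scaling (27.3% of all lines higher), 49 higher and 9 lower with quantile normalization (24.4%), and 64 higher and 4 lower with an equal total (7.42%). The first line of Rpl39 differed by 4.63 (SE 0.37, limma adjusted p = 5.04e-05), at 5.83 and 6.43 with TNFα and at 1.64 and 1.35 untreated. Rpl36a of the large subunit was at 11.28 and 11.92 with TNFα, against 7.54 and 7.39 untreated, a difference of 4.14 (SE 0.40, limma adjusted p = 0.000143). The stalk proteins Rplp0, Rplp1 and Rplp2 were higher by 1.44, 3.55 and 2.06, and Rpsa by 2.08, but with quantile normalization Rplp0 was called lower (-0.77) and Rplp2 (0.54) and Rpsa (-0.13) did not pass, and with an equal total Rplp0 did not pass (0.12). The 6 lines that did not pass were Rpl4 (-0.63, limma adjusted p = 0.160), Rpl7l1 (-0.02), Rpl3 (0.41), both lines of Rps6 (0.66 and 0.49) and Rpl39l, listed at 0 throughout.

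In wild type most called members were lower with TNFα. Here 3 were higher and 22 lower, against 31.9% of all lines higher and 15.3% lower, with a median difference of -0.57 for members and 0.32 for all lines. The 3 higher were Rpl39l, Rpl30 and Rpl22l1. Every other scaling gave 3 higher, with 32 lower by median ratio (23.1% of all lines lower), 69 by quantile (24.3%) and 75 with an equal total (26.2%). After Rps6 and the first line of Rpl13a the largest fall was in Rpl11, which can bind Mdm2 and thereby hold back p53 breakdown. It was at 7.56 and 7.55 with TNFα, against 8.83 and 9.68 untreated (-1.70, SE 0.37, limma adjusted p = 0.00578). The call on the first line of Rpl13a (-1.95, limma adjusted p = 0.0494) was lost under several alternatives, and its difference was -0.72 without replicate 1 of untreated wild type and -3.18 without replicate 2. Rplp0 was at 12.84 and 13.01 with TNFα, against 12.01 and 12.27 untreated, and did not pass (0.79, limma adjusted p = 0.0560). Without both treated Tnfrsf1α-/- libraries, which take no part in this contrast but widen the shared spread, 7 were higher and 41 lower, and without either one of them 48 were called as well. Without replicate 1 or 2 of TNFα-treated wild type 11 and 9 were called, and without replicate 1 or 2 of untreated wild type 41 and 11.

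**Figure D4:**
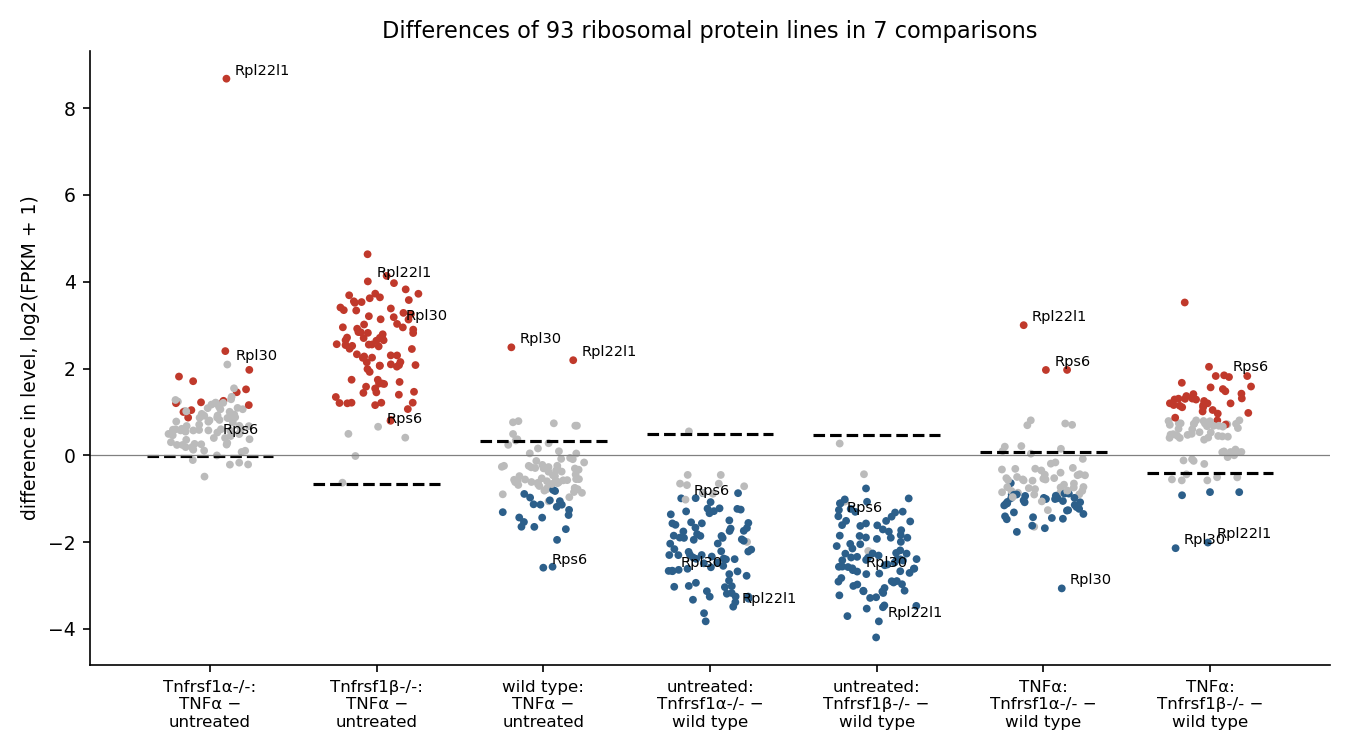
Differences in level, in log2(FPKM + 1), of 93 ribosomal protein lines in 7 comparisons; each point is 1 line, red where called higher, blue where called lower and grey where not called, and the dashed bar is the median of all 11860 tested lines. Rpl39l is left out because it is listed at 0 in most groups; under the label Tnfrsf1α-/- with TNFα 14 lines were higher and 0 lower as plotted, but 3 higher and 58 lower with quantile normalization and 2 higher and 53 lower with an equal total.

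The difference between genotypes in this response was tested itself, and both comparisons share the wild-type libraries. For the label Tnfrsf1α-/- against wild type 36 members had a higher response and 1 a lower one, against 12.8% of all lines higher and 22.0% lower, with a median of 1.24 for members and -0.44 for all lines. The split was 41 and 1 with median-ratio scaling (17.2% of all lines higher) and 21 and 4 with an equal total (7.52%). It was 10 and 13 with quantile normalization (10.6% and 13.8% of members), both below the shares of all lines (15.5% higher and 16.9% lower). The member median was 0.04 there. Without replicate 1 of the treated Tnfrsf1α-/- pair 75 were called, without replicate 1 or 2 of the untreated pair 15 and 19, without replicate 1 or 2 of TNFα-treated wild type 14 and 15, and without replicate 1 or 2 of untreated wild type 61 and 20. For Tnfrsf1β-/- against wild type 82 had a higher response and 1 a lower one, against 17.3% of all lines higher and 47.3% lower, with a median of 3.03 for members and -1.11 for all lines. It was 90 and 1 with median-ratio scaling (28.4% of all lines higher), 71 and 4 with quantile normalization (25.8%) and 79 and 1 with an equal total (13.3%). Rpl22l1 differed by 6.49 for the label Tnfrsf1α-/- (SE 0.49, limma adjusted p = 1.26e-05), and Rps27 by 5.36 for Tnfrsf1β-/- (SE 0.55, limma adjusted p = 7.65e-05). Rps27 was at 13.00 and 13.66 in TNFα-treated Tnfrsf1β-/-, against 9.55 and 9.45 untreated, and at 11.38 and 11.62 in TNFα-treated wild type, against 12.70 and 13.38 untreated.

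Without TNFα almost all members were lower under both knockout labels than in wild type, in comparisons that share the untreated wild-type libraries. For Tnfrsf1α-/- 0 were higher and 82 lower, against 36.7% of all lines higher and 17.0% lower, with a median of -2.01 for members and 0.48 for all lines. Other scalings gave 0 higher and 90 lower by median ratio (24.8% of all lines lower), 14 and 38 by quantile (23.6%), and 4 and 52 with an equal total (6.54%). For Tnfrsf1β-/- 0 were higher and 89 lower, against 36.9% of all lines higher and 17.5% lower, with a median of -2.35 for members and 0.47 for all lines. Other scalings gave 0 and 90 by median ratio (24.6% of all lines lower), 7 and 46 by quantile (23.5%), and 3 and 58 with an equal total (6.27%). The first line of Rpl39 was at 1.97 and 1.76 in untreated Tnfrsf1α-/- and at 1.64 and 1.35 in untreated Tnfrsf1β-/-, against 5.78 and 5.60 in untreated wild type. It fell by 3.83 (SE 0.37, limma adjusted p = 0.00015) and by 4.20 (SE 0.37, limma adjusted p = 9.07e-05). The second line of Rpl32 differed by -3.64 and -3.71, and Rpl22l1 by -3.49 and -3.83. Rplp0, Rplp1, Rplp2 and Rpsa were lower under both labels, Rplp1 by the most (-3.01 and -3.27), but with quantile normalization Rplp0 (0.63 and 0.64) and Rpsa (0.41 and 0.25) had the other sign and did not pass. Rpl4 did not pass under either label (-0.45 and -0.44, limma adjusted p = 0.318 and 0.338), nor did Rpl7l1 (0.55 and 0.27), Rpl35a, the first line of Rpl13a or Rpl39l, which is listed at 0 in all 3 untreated groups. Under the label Tnfrsf1α-/- alone Rpl3, Rpl8, Rpl10, Rps18, Rps3a and both lines of Rps6 also missed the threshold.

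With TNFα the labels stood on either side of wild type, again with shared wild-type libraries. For Tnfrsf1α-/- 3 members were higher and 39 lower, against 22.7% of all lines higher and 22.4% lower, with a median of -0.84 for members and 0.08 for all lines. The split was 3 and 21 by median ratio, 6 and 21 by quantile, and 6 and 13 with an equal total. These are 22.3%, 22.3% and 13.8% of members lower, close to the 22.4%, 21.5% and 12.4% of all lines lower in the same scalings. The 3 higher were Rpl22l1 (3.0, SE 0.34, limma adjusted p = 0.000192) and both lines of Rps6 (1.97 each). Without replicate 1 or 2 of the treated Tnfrsf1α-/- pair 23 and 75 were called, and without replicate 1 or 2 of TNFα-treated wild type 13 and 8. Rpl30 fell by 3.07 (SE 0.63, limma adjusted p = 0.00483), or by 1.83 without replicate 1 of the treated Tnfrsf1α-/- pair, and did not pass when the fit held its 4 libraries alone. Rps15 (-1.76) and Rplp1 (-1.68) were lower too. The call on Rps15 was lost in that smaller fit (adjusted p = 0.128), without either TNFα-treated wild-type library (adjusted p = 0.0614 and 0.128) and without replicate 1 of the treated Tnfrsf1α-/- pair, where its difference was -0.9993. The call on Rplp1 was lost without replicate 2 of TNFα-treated wild type (adjusted p = 0.0629). For Tnfrsf1β-/- 36 were higher and 6 lower, against 14.7% of all lines higher and 36.3% lower, with a median of 0.71 for members and -0.41 for all lines. The split was 61 and 2 by median ratio (25.9% of all lines higher), 70 and 2 by quantile (23.9%), and 75 and 2 with an equal total (23.9%). Without replicate 2 of the treated Tnfrsf1β-/- pair 16 were called, and without replicate 1 or 2 of TNFα-treated wild type 17 and 15. Rps25, a small-subunit protein, was at 12.03 and 12.36 in TNFα-treated Tnfrsf1β-/-, against 10.13 and 10.18 in TNFα-treated wild type (2.04, SE 0.30, limma adjusted p = 0.000668). Besides Rpl39l the lower members were Rpl30 (-2.14), Rpl22l1 (-2.01), Rplp0 (-0.92), Rpl6 (-0.85) and Rpl3 (-0.85). The calls on Rplp0, Rpl30, Rpl6 and Rpl3 were lost in each of the 3 other scalings, which left Rpl39l and Rpl22l1 as the lower lines. The calls on Rps6 against both treated knockout labels were lost without replicate 2 of TNFα-treated wild type (adjusted p = 0.0708 and 0.0717 for the first line), and that of the first line against Tnfrsf1β-/- also without replicate 1 of the treated Tnfrsf1β-/- pair (adjusted p = 0.0590).

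Other genes of the translation machinery were counted from lists of known function. The shares of all tested lines to set beside these counts are 9.81% higher and 7.50% lower with TNFα under the label Tnfrsf1α-/-, 17.6% and 42.9% under Tnfrsf1β-/-, and 31.9% and 15.3% in wild type. The ribosomal proteins outside the naming rule have 5 tested lines, among them Fau, Rpl36al and Rack1, a scaffold on the small subunit. Under the label Tnfrsf1β-/- 4 of the 5 were higher and 0 lower with TNFα, and under Tnfrsf1α-/- 3 were higher and 1 lower. In wild type 0 were higher and 1 lower, and without TNFα 4 of 5 were lower under each knockout label. The proteins of the mitochondrial ribosome, encoded in the nucleus, had 73 tested lines. With TNFα 10 (13.7%) were higher and 0 lower under the label Tnfrsf1α-/-, and 52 (71.2%) higher and 0 lower under Tnfrsf1β-/-. In wild type 18 (24.7%) were higher and 11 (15.1%) lower, at or below the shares of all lines. Without TNFα 54 and 57 of them (74.0% and 78.1%) were lower and 0 higher in the Tnfrsf1α-/- and Tnfrsf1β-/- libraries against wild type, where 17.0% and 17.5% of all lines were lower. Mrpl12, known in human cells to bind the mitochondrial RNA polymerase as well, was higher with TNFα by 5.62 under the label Tnfrsf1α-/- (limma adjusted p = 6.76e-07), by 2.81 under Tnfrsf1β-/- and by 2.78 in wild type.

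Other TOP genes, mainly translation factors, had 17 tested lines. With TNFα 2 were higher and 1 lower under the label Tnfrsf1α-/- and 6 and 1 in wild type, where 6 higher (35.3%) is near the share of all lines. Under Tnfrsf1β-/- 6 were higher and 6 lower (35.3% each). In wild type Eef2, the translocation factor of elongation, was higher by 1.99 (limma adjusted p = 0.00312). Without TNFα 5 were higher and 5 lower (29.4% each) for Tnfrsf1α-/- against wild type, where 36.7% of all lines were higher and 17.0% lower. For Tnfrsf1β-/- 3 were higher (17.6%) and 9 lower (52.9%), against 36.9% and 17.5% of all lines. Of 29 ribosome biogenesis lines 2 (6.90%) were higher and 0 lower with TNFα under the label Tnfrsf1α-/-, and 9 (31.0%) higher and 8 (27.6%) lower under Tnfrsf1β-/-. In wild type 12 (41.4%) were higher and 1 lower, and Pes1, a factor of large-subunit assembly, was higher by 1.94 (limma adjusted p = 0.000109). Of 14 lines for cap binding and mTOR control 1 was higher and 0 lower under the label Tnfrsf1α-/-, and 7 were higher and 1 lower in wild type. Under Tnfrsf1β-/- 2 (14.3%) were higher and 7 lower, both near the shares of all lines. Mtor itself was higher by 1.45 in wild type with TNFα (limma adjusted p = 0.00251). These list counts come from the unscaled values and were not repeated under the other scalings.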

How the data were processed

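Per the labels' protocols, libraries came from 1 ug of Trizol-extracted RNA by an Illumina TruSeq protocol. Aligner, quantification, build, strand use and filters were not given in the sources used here. A single table deposited by the authors had 22730 lines and 12 columns; 346 empty lines were left out. Its unit, log2(FPKM + 1), was inferred from the deposited values, which run from 0 to 16.8. Shares use 2 to the value, minus 1. Lines with the same symbol were kept apart (1835 lines).

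Lines with a mean of at least 1 FPKM were fitted with limma 3.58.1 (R 4.3.3) as 6 group means over all 12 libraries, with a trend and no block. Two-sided p-values were adjusted over 11860 lines (Benjamini-Hochberg) and called under 0.05. The fit was tried on simulated data with independent noise for each line and library, which does not cover shifts that many lines of a library share. The log2 scale with pseudocount 1 understates changes of low lines.

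The members, lists and rules were chosen with earlier results of these data known. Named are the stalk proteins and Rpsa, members of extreme level, the lines that strayed most from the member median, up to 4 called members of highest and lowest difference per contrast whose groups do not overlap, paralogues with their parents, and members called against the majority. Of each context list up to 3 genes of smallest p per contrast could be named. Rps7, Rpl8, Rps3a and the first line of Rpl21 fall outside this rule and were named after their values were seen. Some members and list genes are not reported here by name. Promoters are from RefSeq, GRCr8. Alternatives were other scalings, filters, pseudocounts, denominators, a replicate block and each library left out.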

Additional observations from a re-analysis of the deposited data

Results flagged for a closer look

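The response to TNFα was flagged because it differed between genotypes by a test of the difference itself. For the label Tnfrsf1α-/- against wild type 36 ribosomal protein lines had a higher response and 1 a lower one. Of all tested lines 12.8% were higher and 22.0% lower there. For Tnfrsf1β-/- against wild type 82 had a higher response and 1 a lower one, against 17.3% and 47.3% of all tested lines (limma adjusted p under 0.05). With quantile normalization the split was 71 and 4 for Tnfrsf1β-/-. For the label Tnfrsf1α-/- it was 10 and 13, both below the shares of all lines (15.5% and 16.9%).

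For the label Tnfrsf1α-/- the largest differences in response were 6.49 for Rpl22l1, 3.14 for Rps29, 3.07 for the first line of Rpl39 and 2.99 for the first line of Rps6. For Tnfrsf1β-/- they were 5.36 for Rps27, 5.30 for the first line of Rpl39, 5.27 for Rpl36a and 5.27 for Rps25. Rpl39l had the lower response in both comparisons (limma adjusted p = 4.55e-08 for the label Tnfrsf1α-/- and 3.34e-08 for Tnfrsf1β-/-), and no fold is given because it is listed at 0 in most groups. With quantile normalization the calls on Rps29 and Rps6 for the label Tnfrsf1α-/- were lost.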

How the results depend on the processing

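Counts moved with the scaling and with single libraries. With quantile normalization 61 members were called for TNFα under the label Tnfrsf1α-/- (3 higher, 58 lower), so that direction turned round. For its response against wild type 23 were called in that scaling, 10 higher (10.6%) and 13 lower (13.8%). Both lay below the shares of all lines (15.5% and 16.9%), with a member median of 0.04, so neither direction stood out. An equal total gave 55 (2 and 53) for TNFα under that label, or 56.4% of members lower against 74.7% of all lines. Quantile normalization called 58 for TNFα under Tnfrsf1β-/-, 72 in wild type, 27 and 72 for treated Tnfrsf1α-/- and Tnfrsf1β-/- against wild type, and 52 and 53 for the untreated ones. An equal total, chosen after seeing the data, called 78 for TNFα in wild type and 19 and 77 for treated Tnfrsf1α-/- and Tnfrsf1β-/- against wild type. Median-ratio scaling called 4 for TNFα under the label Tnfrsf1α-/- and 24 for treated Tnfrsf1α-/- against wild type. With only the groups compared these contrasts gave 1 and 7, and the response of the label Tnfrsf1α-/- gave 18. No filter gave 9 for TNFα under the label Tnfrsf1α-/-. Leaving out both treated Tnfrsf1α-/- libraries, also chosen after seeing the data, gave 48 for TNFα in wild type. Causes were not tested beyond these constructions. No share of all lines stands beside the counts with only the groups compared, with no filter or without both treated Tnfrsf1α-/- libraries. Whether the members or all lines moved cannot be read from those counts.

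Leaving out each library in turn gave 2 to 68 calls for TNFα under the label Tnfrsf1α-/-, 80 to 88 under Tnfrsf1β-/- and 9 to 48 in wild type, 14 to 75 and 77 to 88 for the responses of the labels Tnfrsf1α-/- and Tnfrsf1β-/-, 69 to 86 and 79 to 90 for the untreated comparisons, and 8 to 75 and 15 to 55 for the treated ones. These counts pool higher and lower calls and have no share of all tested lines beside them. Whether the members or all lines moved cannot be read from them. The members' share of total FPKM without 1 library was 6.99% to 10.7% and 10.1% to 10.6% for treated and untreated Tnfrsf1α-/-. It was 21.1% to 23.7% and 9.23% to 9.55% for Tnfrsf1β-/-, and 7.95% to 8.33% and 16.1% to 22.6% for wild type. The median level of all 102 lines was 8.96 to 9.78 and 8.55 to 8.71, 10.54 to 10.58 and 8.40 to 8.54, and 10.10 to 10.15 and 10.18 to 10.94 in the same order.

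The share without the 10 highest other lines in the total was 11.3% in untreated Tnfrsf1α-/-, 25.9% and 10.2% in treated and untreated Tnfrsf1β-/- and 11.0% in treated wild type. Without mitochondrial genes in the total it was 11.0% and 9.93%, and with 1 line per symbol 10.02% and 9.09%, in untreated Tnfrsf1α-/- and Tnfrsf1β-/-. The median level was 8.78 in treated Tnfrsf1α-/-, 9.99 in untreated Tnfrsf1α-/-, 10.30 and 9.86 in treated and untreated Tnfrsf1β-/- and 9.11 in treated wild type with quantile normalization; 9.86, 10.59, 9.71 and 9.27 in untreated Tnfrsf1α-/-, treated and untreated Tnfrsf1β-/- and treated wild type with an equal total; 11.30 and 8.33 in treated and untreated Tnfrsf1β-/- with median-ratio scaling; and 8.78, 10.76 and 10.28 in untreated Tnfrsf1α-/-, treated Tnfrsf1β-/- and treated wild type over tested members only.

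The labels do not say that replicate numbers pair the libraries, and the correlations of the deviations of same-numbered libraries from their group means, over all tested lines, ran from -0.17 to 0.24 over 15 pairs of groups, 9 of them over 0.1, so no block was used. With a replicate block 31 members were called for TNFα under the label Tnfrsf1α-/-, 88 under Tnfrsf1β-/- and 32 in wild type. These 3 counts pool higher and lower calls and have no share of all lines beside them, so they do not show whether the members or all lines moved. The alternatives gave 944 values for 48 called results, each a line in a comparison, chosen for a high or low difference. Some lines recur among the 48. Of the 944 values 883 stayed on the same side of the threshold in the same direction and 61 no longer passed. Of these, 38 were without 1 library, 14 with another scaling and 9 with another setting. Among the 48 results 0 reversed, but other calls did. With quantile normalization Rplp0 was called lower with TNFα under the label Tnfrsf1α-/- (-1.11, against 1.04 unscaled). Under Tnfrsf1β-/- it was called lower as well (-0.77, against 1.44), and so was Rpl6, which was called higher unscaled. Depth is unknown, and groups of 2 limit the precision.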
